A study of Mus musculus with 18 samples.

Results

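The core circadian clock genes were followed in white and brown fat of obese mice. The 10 members are Arntl, Clock, Npas2, Per1, Per2, Per3, Cry1, Cry2, Dbp and Tef, out of 52093 gene symbols in the deposited tables. They were chosen by name as core clock genes and clock outputs (Dbp and Tef), with earlier results of these data known. Each of the 10 had 1 row in the tables and reads in all 18 samples.

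RNA was sequenced from inguinal white adipocytes (iWAT adipocytes), epididymal white adipocytes (eWAT adipocytes) and brown adipose tissue (BAT), with 6 samples of each. All samples came from wild-type male C57BL/6 mice kept on a high-fat diet for 12 weeks, and there was no lean or drug-treated control. The labels' treatment field names regular chow, against the titles and the design text, and the samples are taken here as high-fat diet. The labels give no age, and the study's methods and supplement do not give the same one. The mice were housed on a light-dark cycle, but the hour of collection and the feeding state at collection are not given in the sources used here. White adipocytes were freed from the tissue with collagenase and collected as the floating layer. BAT was frozen as whole tissue. Preparation and tissue therefore cannot be told apart in any comparison with BAT, and neither can sequencing lane, since no BAT library shared a lane with a white one. In bulk RNA, fewer cells of a type and less RNA per cell cannot be told apart either. Nothing in the labels says that equally numbered samples came from the same mouse, so p-values measure the spread between these samples.

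The clock is a feedback loop of transcription. BMAL1, the product of Arntl, pairs with CLOCK or with its close relative NPAS2 and switches on genes that carry an E-box. Among these are the Per and Cry genes, whose products return to the nucleus and block the pair, and Dbp and Tef, which encode activators that bind the D-box. REV-ERB receptors repress Arntl and form a second loop. In most peripheral tissues, Arntl and Npas2 are known to peak at the time of day when Dbp, Tef and Per3 are low. Per1 is also known to respond rapidly to glucocorticoids and cyclic AMP. Adipose tissue has a clock of this kind, which feeding time can shift.

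Promoter windows that hold matches to short motifs are shown here for 4 members that moved together or in opposition across the BAT samples. Windows from 250 bases before to 50 after a transcription start were available for 9 of the 10 members, from RefSeq on build GRCm38.p6, and Per2 had no entry. Capitals mark matches to the motifs searched on both strands. These were the E-box CACGTG, held by 7.15% of all 32851 windows, and its variant CACGTT, held by 4.68%. The others were the nuclear receptor half-site AGGTCA (16.3%), its longer form ANTAGGTCA (0.661%), which contains the half-site, the D-box TTANGTAA (2.32%) and the cyclic AMP response element TGACGTCA (1.79%). The second Arntl window, chr7:113207261-113207560 on the plus strand, held the longer half-site beginning 28 bases after the start, as AGTAGGTCA. The first Per1 window, chr11:69098699-69098998 on the plus strand, held an E-box beginning 166 bases before the start and a half-site on the minus strand 137 bases before it. The Per3 window, chr4:151044616-151044915 on the minus strand, held 2 D-boxes, beginning 205 and 158 bases before the start. The first Tef window, chr15:81802423-81802722 on the plus strand, held 1 E-box 127 bases before the start. Each window shown held a match, while the first Arntl window and the second Per1 window held none. The second Tef window held an E-box 138 bases before the start. A match describes letters in this window and is not a measured binding site.
Arntl: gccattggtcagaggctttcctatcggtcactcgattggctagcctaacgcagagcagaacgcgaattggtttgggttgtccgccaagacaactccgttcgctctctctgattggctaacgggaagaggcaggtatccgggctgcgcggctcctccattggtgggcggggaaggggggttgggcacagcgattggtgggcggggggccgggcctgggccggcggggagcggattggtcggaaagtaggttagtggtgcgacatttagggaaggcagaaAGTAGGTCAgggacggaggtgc
Per1: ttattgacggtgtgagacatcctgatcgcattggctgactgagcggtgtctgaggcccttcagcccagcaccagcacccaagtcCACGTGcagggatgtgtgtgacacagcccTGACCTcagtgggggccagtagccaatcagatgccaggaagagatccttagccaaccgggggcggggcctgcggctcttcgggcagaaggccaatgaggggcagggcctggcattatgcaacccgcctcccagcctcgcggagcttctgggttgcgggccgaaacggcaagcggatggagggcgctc
Per3: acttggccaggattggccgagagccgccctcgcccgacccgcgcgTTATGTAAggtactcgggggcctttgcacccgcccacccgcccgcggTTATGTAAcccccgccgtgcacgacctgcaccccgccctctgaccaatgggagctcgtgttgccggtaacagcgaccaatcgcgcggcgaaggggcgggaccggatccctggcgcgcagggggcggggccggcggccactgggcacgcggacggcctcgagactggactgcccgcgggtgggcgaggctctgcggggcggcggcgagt
Tef: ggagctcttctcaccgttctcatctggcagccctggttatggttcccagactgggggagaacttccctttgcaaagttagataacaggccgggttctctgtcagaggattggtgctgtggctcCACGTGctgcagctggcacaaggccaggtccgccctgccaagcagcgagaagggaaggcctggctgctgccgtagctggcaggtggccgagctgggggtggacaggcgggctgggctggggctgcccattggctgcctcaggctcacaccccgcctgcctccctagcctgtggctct

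Of the members not printed, Cry1 held an E-box 60 bases before the start and the variant 79 bases before it. Cry2 held the variant 166 bases before the start, and the third Clock window held a half-site 119 bases before it. The Npas2 and Dbp windows held none of the motifs, which says nothing about sites outside these 300 bases.

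Levels are given below as RPKM, read counts per kilobase of gene length and library size, rescaled between libraries by TMM (trimmed mean of M values) so that tissues can be set side by side. The libraries held 24655056 to 42518483 reads on gene rows. The TMM factor was 0.536 to 0.725 in BAT and 1.14 to 1.31 in white adipocytes. Differences between tissues were tested on the deposited counts with edgeR (quasi-likelihood), with Benjamini-Hochberg adjustment over all genes and a threshold of 0.05. A log2 fold change of 1 is a doubling, and each is given with its standard error (SE). The labelled tissues carried their own markers. The summed level of 4 brown adipocyte genes that include Ucp1 was 2798 to 3591 in BAT, 7.58 to 11.0 in iWAT and 1.31 to 2.82 in eWAT. White samples were not pure adipocytes, as 5 macrophage markers summed to 2197 to 3487 in eWAT, 398 to 769 in iWAT and 37.3 to 60.4 in BAT.

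Some libraries stood apart and are named before the results. In 8 of the 10 members, BAT 2 and BAT 5 both lay outside the range of BAT 1, 16, 17 and 18 on the same side, 3 members lower and 5 higher. Of 19243 genes averaging 10 or more reads over the BAT samples, 26.6% did so, 14.1% lower and 12.6% higher, and nothing is read from these shares because the pair was noticed through the members. The 2 libraries also had the lowest mean correlation with their own tissue over all genes, 0.981 and 0.978, against 0.983 to 0.985 for the other 4. eWAT 1 and eWAT 3 had the lowest sums of 5 adipocyte markers in eWAT, 2993 and 2165 against 4467 to 6898. They also had the highest macrophage sums, 3487 and 3366 against 2197 to 2385. Values without these libraries are given beside some of the results that they move.

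The clearest pattern among the members was within BAT. In BAT 2 and BAT 5, the activator genes Arntl and Npas2 and the repressor gene Per1 were low, and Per2, Per3, Dbp and Tef were high. The other 4 BAT samples had the opposite arrangement, with BAT 18 at its far end for 6 of these 7 genes, Per1 being the exception. The samples were noticed through these values, so the difference is a description and was not tested.

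Arntl, on mm9 chr7:120350979-120457638, encodes BMAL1, the shared partner of both activator complexes. Its TMM-scaled RPKM was 0.549 in BAT 2 and 0.268 in BAT 5, and 1.77, 1.61, 2.00 and 2.29 in BAT 1, 16, 17 and 18. The values of BAT 2 and 5 rested on 90 and 25 reads. Both lay below every one of the 12 white samples, whose lowest value was 1.52, while the other 4 BAT samples lay inside the white range. That position depends on TMM scaling. In the deposited RPKM, BAT 1, 16, 17 and 18 were at 1.35, 1.02, 1.56 and 1.70, also below the lowest white value, 1.80 in iWAT 1.

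Npas2, on mm9 chr1:39251117-39420085, encodes the relative of CLOCK. Its level was 0.0232 in BAT 2 and 0.0136 in BAT 5, from 3 reads and 1 read. It was 0.169, 0.0809, 0.162 and 0.299 in BAT 1, 16, 17 and 18, from 18, 5, 19 and 32 reads. Npas2 thus followed Arntl, at a depth too low for a fold between single BAT samples.

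Dbp, on mm9 chr7:52960458-52965573, is a direct E-box target and the classic output of the clock. Its level was 18.9 in BAT 2 and 24.5 in BAT 5, and 5.22, 7.95, 5.01 and 2.61 in BAT 1, 16, 17 and 18. The highest BAT value was 9.41 times the lowest, against 2.15 times in iWAT and 1.68 times in eWAT. The Dbp row overlaps Sphk2 on the other strand by 741 bases at its end, and Sphk2 held 616 reads in BAT on average where Dbp held 726. How reads were assigned by strand is not given in the sources used here, so part of the Dbp count could come from Sphk2.

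Tef, on mm9 chr15:81632851-81657293, encodes a second D-box activator and moved with Dbp. Its level was 25.2 in BAT 2 and 31.0 in BAT 5, and 13.4, 15.0, 11.4 and 7.59 in BAT 1, 16, 17 and 18. The 6 BAT samples stood in the same order as for Dbp.

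Among the repressors, Per3, on mm9 chr4:150377761-150418774, was 4.17 in BAT 2 and 5.39 in BAT 5, and 1.68, 2.23, 1.45 and 1.24 in BAT 1, 16, 17 and 18. Per2, on mm9 chr1:93312559-93355907, was 4.07 and 4.38 in BAT 2 and 5, and 2.55, 2.45, 2.37 and 0.952 in the others in the same order. Both repressors were thus high where Arntl was low. Per1, on mm9 chr11:68908719-68923462, went the other way. It was 2.57 and 2.25 in BAT 2 and 5, and 10.5, 9.09, 9.08 and 6.73 in BAT 1, 16, 17 and 18. Per1 and Per2 therefore set BAT 2 and 5 apart in opposite directions, and in BAT 2 and 5 alone of the 18 samples Per1 was below Per2, at 0.632 and 0.513 of its RPKM. The Per1 row overlaps a same-strand row of Vamp2 by 13780 bases, and how shared reads were assigned is not given in the sources used here.

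**Figure D1:**
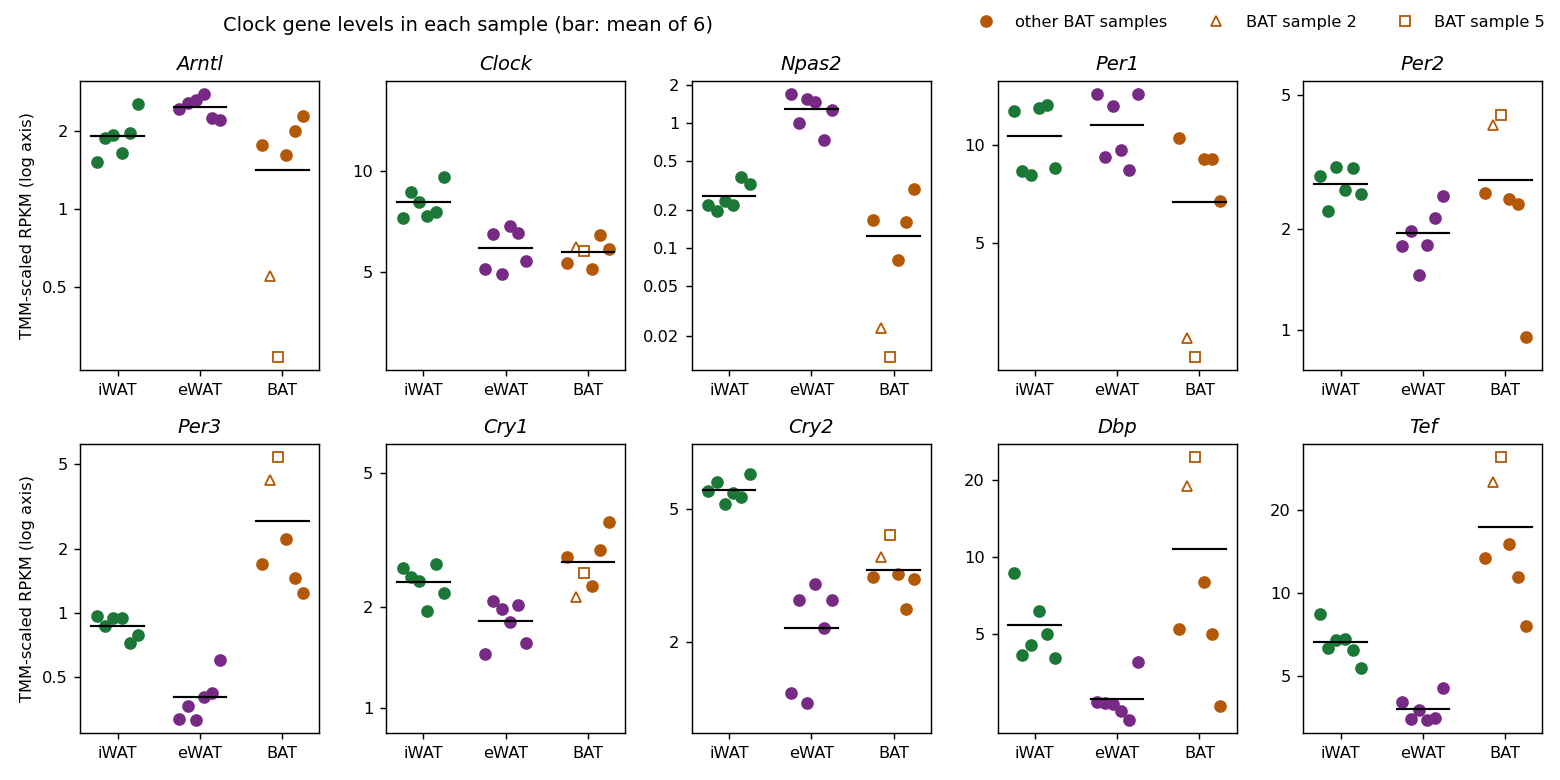
TMM-scaled RPKM (log axis) of the 10 members in each of 18 samples, with a bar at the mean of each tissue's 6 samples. BAT sample 2 (open triangle) and BAT sample 5 (open square) lie below the other BAT samples for Arntl, Npas2 and Per1 and above them for Per2, Per3, Dbp and Tef, and among them for Clock.

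The remaining members differed less between these samples. Clock, on mm9 chr5:76638896-76733817, was 5.96 and 5.78 in BAT 2 and 5 and 5.10 to 6.44 in the other 4. Cry1, on mm9 chr10:84594445-84647809, was 2.14 and 2.52 against 2.31 to 3.57. Cry2, on mm9 chr2:92243803-92274229, was slightly higher, 3.58 and 4.18 against 2.51 to 3.18.

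Spread between samples puts the BAT pattern beside the rest of the transcriptome. The SD of log2(RPKM + 0.1) over the 6 BAT samples was 1.21 for Dbp, 1.05 for Arntl and 0.944 for Per1. It was 0.812 for Per3, 0.749 for Per2 and 0.745 for Tef. The median over 12501 genes of at least 1 RPKM in BAT was 0.208. Dbp ranked 54 from the top in that list, Arntl 62, Per1 78, Per3 121, Per2 149 and Tef 152. Clock, at 0.214, was near the median. In iWAT the widest members were Dbp (0.451) and Per1 (0.401), and in eWAT they were Cry2 (0.467) and Npas2 (0.433), with medians over all such genes of 0.158 and 0.167. Samples 2 and 5 of iWAT and of eWAT showed no such shift, with Arntl at 1.87 and 1.97 in iWAT and 2.57 and 2.24 in eWAT.

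Clock genes that are not members were listed as a second group, and 4 of them are given in full. Nfil3, which encodes the repressor that competes at the D-box, was 6.95 and 5.65 in BAT 2 and 5 and 11.1 to 15.5 in the other 4. Hlf, the third D-box activator, was 13.7 and 14.4 against 6.75 to 10.1, and Nr1d2, which encodes REV-ERBβ, was 20.4 and 24.8 against 9.97 to 16.3. The activators of the D-box thus stood high together and their repressor low. Nr1d1, which encodes REV-ERBα, did not separate the samples, at 39.0 and 33.8 against 27.8 to 50.4.

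**Figure D2:**
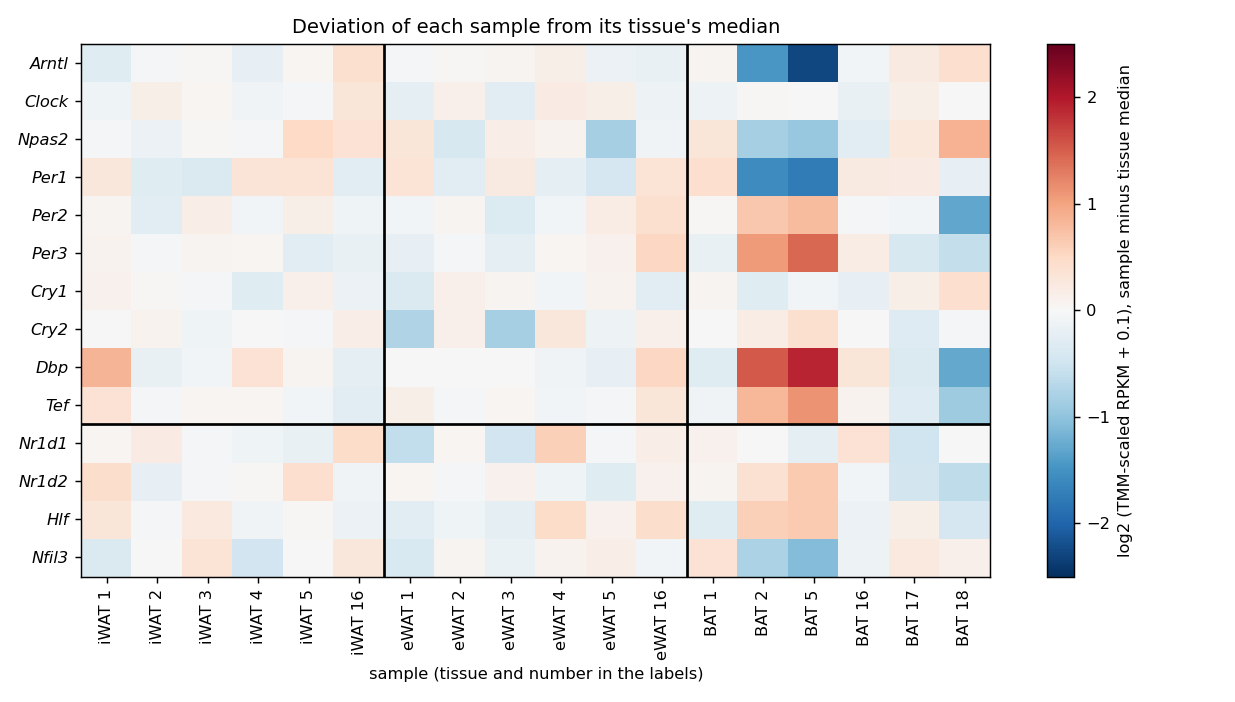
Each cell is the log2(TMM-scaled RPKM + 0.1) of a gene in a sample minus the median of its tissue, for the 10 members (above the line) and 4 other clock genes. BAT 2 and BAT 5 carry the strongest colours, with Arntl, Npas2, Per1 and Nfil3 low and Per2, Per3, Dbp, Tef, Nr1d2 and Hlf high.

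Some genes of other groups set BAT 2 and 5 apart too. Among 4 glucocorticoid targets, Sgk1 was 14.2 and 12.2 there and 17.4 to 24.9 in the other 4, and Tsc22d3 was 7.03 and 6.80 against 8.78 to 14.7. Fkbp5 went the other way, at 0.653 and 1.13 against 0.450 to 0.652, and Zbtb16 was highest in BAT 2 and lowest in BAT 5. Their sum, mostly Sgk1 and Tsc22d3, was 24.1 and 21.2 against 29.4 to 41.7. Of 13 genes that respond to tissue handling, 7 were lower in both samples than in the other 4, none was higher and 6 overlapped. Among the 7, the orphan receptor gene Nr4a1 was 3.08 and 1.30 against 7.21 to 34.2, and Zfp36, which encodes an RNA-binding protein, was 7.47 and 5.13 against 12.4 to 18.1. The heat-shock gene Hspa1a was 1.79 and 2.76 against 8.30 to 203, and the Hspa1b row, also among the 7, contains the Hspa1a row and is no separate measurement. The sum of 4 endothelial markers was 109 and 96.4 against 112 to 135, with 3 of the 4 lower in both samples. The progenitor marker Pdgfra was higher in both, reaching 1.80 in BAT 2, against 0.974 to 1.13. The part of these in the clock pattern was not tested. The brown adipocyte sum was 3321 and 2798 against 3149.5 to 3591, and the sum of 5 skeletal muscle markers was lowest in BAT 2 (1.91) and highest in BAT 5 (149). BAT 2 and BAT 5 came from different lanes.

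Per1 formed separate clusters in the white depots too. It was 12.7 to 13.2 in iWAT 1, 4 and 5 and 8.12 to 8.48 in iWAT 2, 3 and 16. It was 13.2 to 14.3 in eWAT 1, 3 and 16 and 8.40 to 9.63 in eWAT 2, 4 and 5. The glucocorticoid target sum was 99.7 to 115 in the iWAT samples with high Per1 and 83.0 to 92.1 in the other 3. In eWAT it was 91.2 to 95.7 against 73.9 to 84.7. This split was noticed after the values were seen and was not tested, and single targets did not all follow it. Sgk1 was 49.0, 55.1 and 50.1 in the eWAT samples with high Per1 and 47.2 to 54.0 in the other 3. Fkbp5 was lowest of all eWAT samples in eWAT 3, at 1.68. In iWAT, Sgk1 followed the split, at 51.7 to 77.3 against 44.6 to 47.4, and the other targets did not. Tsc22d3 was lowest in iWAT 5 (27.9), where Fkbp5 (2.44) was also below iWAT 2 and 3. Zbtb16 was highest in iWAT 16 (9.42).

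iWAT and eWAT adipocytes were compared to see how levels of clock genes differ between a subcutaneous and a visceral depot. The hour of collection is not given, so a difference in level cannot be told from a difference in time of day. The sum of 5 adipocyte markers was 9262.5 to 14248 in iWAT and 2165 to 6898 in eWAT, with no overlap, and the macrophage sums given above ran the other way. Their part in the differences was not tested. Of the 10 members, 9 differed in edgeR's test, 7 higher in iWAT and 2 higher in eWAT. Over all 19623 genes tested 68.6% were called, 34.1% higher in iWAT and 34.5% higher in eWAT. The median log2 fold change, iWAT over eWAT, was 0.49 for the members and 0.00 for all genes, and the median size was 0.66 against 0.47. In 6 members the 6 iWAT and 6 eWAT values did not overlap, as in 43.5% of all genes.

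Among the activators, Npas2 was the member furthest apart of all 10, with a TMM-scaled RPKM of 0.197 to 0.368 (median 0.230) in iWAT and 0.725 to 1.69 (median 1.36) in eWAT, with no overlap. Its log2 fold change was -2.27 (SE 0.22, edgeR adjusted p = 2.06e-06), which is 4.82-fold higher in eWAT. Without eWAT 1 and 3, which held its 2 highest values, it was -2.07. Clock went the other way, at 7.25 to 9.62 (median 7.84) in iWAT and 4.92 to 6.86 (median 5.96) in eWAT, again with no overlap (log2 fold change 0.47, SE 0.10, edgeR adjusted p = 0.000912). Arntl was 1.52 to 2.54 (median 1.90) in iWAT and 2.20 to 2.78 (median 2.51) in eWAT. These ranges overlapped, and it was 1.28-fold higher in eWAT (log2 fold change -0.36, SE 0.11, edgeR adjusted p = 0.0115).

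The repressors were higher in iWAT apart from Per1. Cry2 was 5.16 to 6.34 (median 5.60) in iWAT and 1.32 to 2.97 (median 2.44) in eWAT, 2.60-fold higher in iWAT (log2 fold change 1.38, SE 0.18, edgeR adjusted p = 2.43e-05). The 2 lowest eWAT values were in eWAT 1 and 3, and without them the log2 fold change was 1.12. Per3 was 0.720 to 0.961 in iWAT and 0.314 to 0.597 in eWAT, 2.18-fold higher in iWAT (log2 fold change 1.12, SE 0.15, edgeR adjusted p = 1.99e-05). Per2 and Cry1 differed less, with overlapping ranges and log2 fold changes of 0.50 for Per2 (edgeR adjusted p = 0.00213, SE 0.12) and 0.41 for Cry1 (edgeR adjusted p = 0.00522, SE 0.11). Per1 did not pass the test (log2 fold change -0.10, SE 0.18, edgeR adjusted p = 0.66).

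Both output genes were higher in iWAT. Dbp was 4.03 to 8.65 (median 4.76) in iWAT and 2.31 to 3.89 (median 2.68) in eWAT, 1.95-fold higher in iWAT (log2 fold change 0.97, SE 0.19, edgeR adjusted p = 0.000573). Tef was 5.36 to 8.42 (median 6.56) in iWAT and 3.48 to 4.52 (median 3.66) in eWAT (log2 fold change 0.82, SE 0.10, edgeR adjusted p = 1.60e-05). Neither gene overlapped between the depots. eWAT 16 was the eWAT sample nearest to iWAT in both.

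Sequencing lane could be checked here, since iWAT 1 and 3 shared lane 1 with eWAT 2, 3, 4 and 5 and the other white samples were in lane 2. All 9 called members kept their direction within lane 1 and within lane 2. The difference in mean log2 level was 1.27 and 0.54 for Dbp, 1.06 and 0.52 for Tef, and -1.90 and -2.08 for Npas2, in lanes 1 and 2. Without eWAT 1 and 3, 9 members again differed, beside 60.2% of all genes. When a difference of more than a doubling was required (glmTreat in edgeR), 1 member passed, Npas2, beside 11.2% of all genes.

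Comparisons of white adipocytes with BAT set clock gene levels of isolated cells against those of whole brown fat, with the same limit on time of day. Between iWAT and BAT, 5 of 10 members differed in edgeR's test, 3 higher in iWAT and 2 higher in BAT. Over 19745 genes 75.3% were called, 38.1% higher in iWAT and 37.2% higher in BAT, and the difference of the members' share from these was not tested. In 3 members the 2 tissues did not overlap, against 56.4% of all genes, and 1 member passed the test for more than a doubling, Per3, against 29.2%. Without BAT 2 and 5, 4 members differed, against 73.8% of all genes.

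Per3 and Tef were higher in BAT than in iWAT, and Clock and Cry2 were lower. Per3 was 3.05-fold higher in BAT (log2 fold change -1.61 with SE 0.31, edgeR adjusted p = 0.000227). In TMM-scaled RPKM every BAT value, the lowest of which was 1.24, exceeded the highest of iWAT, 0.961. In the deposited RPKM, without TMM scaling, BAT 17 (1.13) and BAT 18 (0.918) lay inside the iWAT range of 0.866 to 1.14. Without BAT 2 and 5 the log2 fold change of Per3 was -0.91. Tef was 2.56-fold higher in BAT (log2 fold change -1.35 with SE 0.27, edgeR adjusted p = 0.000287), and -0.82 without them. Without TMM scaling, the Tef value was -0.49 and no longer passed (edgeR adjusted p = 0.0899). Cry2 was 2.51 to 4.18 in BAT, below all iWAT samples (log2 fold change 0.82, SE 0.10, edgeR adjusted p = 2.67e-06). Clock was 5.10 to 6.44 in BAT, also below all iWAT samples (log2 fold change 0.52, SE 0.08, edgeR adjusted p = 4.61e-05). Both stayed past the threshold without BAT 2 and 5, at 0.94 and 0.52.

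The other values against iWAT turned on BAT 2 and 5. Npas2 was called higher in iWAT (log2 fold change 1.04 with SE 0.44, edgeR adjusted p = 0.0427), and without them it was 0.52 and not past the threshold (edgeR adjusted p = 0.134). Dbp was -0.96 (SE 0.44, edgeR adjusted p = 0.0584) with all 6 BAT samples and 0.09 without BAT 2 and 5. Arntl was 0.45 (SE 0.35, edgeR adjusted p = 0.253) and 0.00 without them, and Per1 0.69 (SE 0.32, edgeR adjusted p = 0.0651) and 0.28. Per2 and Cry1 were at -0.01 and -0.18, and without TMM scaling both were called higher in iWAT, at 0.84 and 0.68.

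Between eWAT and BAT, 8 of 10 members differed in edgeR's test, 3 higher in eWAT and 5 higher in BAT. Of 20076 genes 82.5% were called, 41.1% higher in eWAT and 41.4% higher in BAT, a share near that of the members. In 4 members the tissues did not overlap, against 66.3% of all genes, and 4 passed for more than a doubling, Npas2, Per3, Dbp and Tef, against 40.7%. Without BAT 2 and 5, 6 members differed, beside 81.0% of all genes. Without eWAT 1 and 3, 5 did, beside 80.8%.

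Npas2 was the member most raised in eWAT over BAT, 0.725 to 1.69 against 0.0136 to 0.299, or 10.1-fold (log2 fold change 3.33 with SE 0.41, edgeR adjusted p = 2.05e-06), and 2.79 without BAT 2 and 5. Arntl was 1.79-fold higher in eWAT (log2 fold change 0.84, SE 0.34, edgeR adjusted p = 0.034). It was 0.37 without BAT 2 and 5 and still past the threshold (edgeR adjusted p = 0.00818), but not past it without eWAT 1 and 3 (0.82, edgeR adjusted p = 0.0589). Per1 was 1.76-fold higher in eWAT (log2 fold change 0.82, SE 0.33, edgeR adjusted p = 0.0316), with 0.39 and no call without BAT 2 and 5 (edgeR adjusted p = 0.0629) and 0.67 and no call without eWAT 1 and 3 (edgeR adjusted p = 0.0974). Clock did not pass, at 0.07 (SE 0.09, edgeR adjusted p = 0.501).

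The D-box genes and Per3 were higher in BAT than in eWAT. Per3 was 6.55-fold higher in BAT (log2 fold change -2.71, SE 0.35, edgeR adjusted p = 2.96e-06). Tef was 4.43-fold higher (log2 fold change -2.15 with SE 0.28, edgeR adjusted p = 3.16e-06) and Dbp 3.73-fold higher (log2 fold change -1.90, SE 0.44, edgeR adjusted p = 0.000982). Without BAT 2 and 5 the log2 fold changes were -2.02 for Per3, -1.62 for Tef and -0.87 for Dbp, all past the threshold. Cry1 was called higher in BAT at -0.56 (SE 0.13, edgeR adjusted p = 0.00115) and Cry2 at -0.54 (SE 0.19, edgeR adjusted p = 0.0139), but without TMM scaling both changed sign, to 0.35 and 0.37. The Cry2 call was also lost without BAT 2 and 5 (-0.42, edgeR adjusted p = 0.0858) and without eWAT 1 and 3 (-0.28, edgeR adjusted p = 0.0543). Per2, at -0.49 (SE 0.27, edgeR adjusted p = 0.0984), did not pass.

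Scaling mattered in both comparisons with BAT. Without TMM the median over all genes of the log2 fold change moved by 0.85 for iWAT over BAT and by 0.90 for eWAT over BAT. The share of called genes that were higher in the white depot then rose from 50.6% to 81.8% and from 49.8% to 76.1%.

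**Figure D3:**
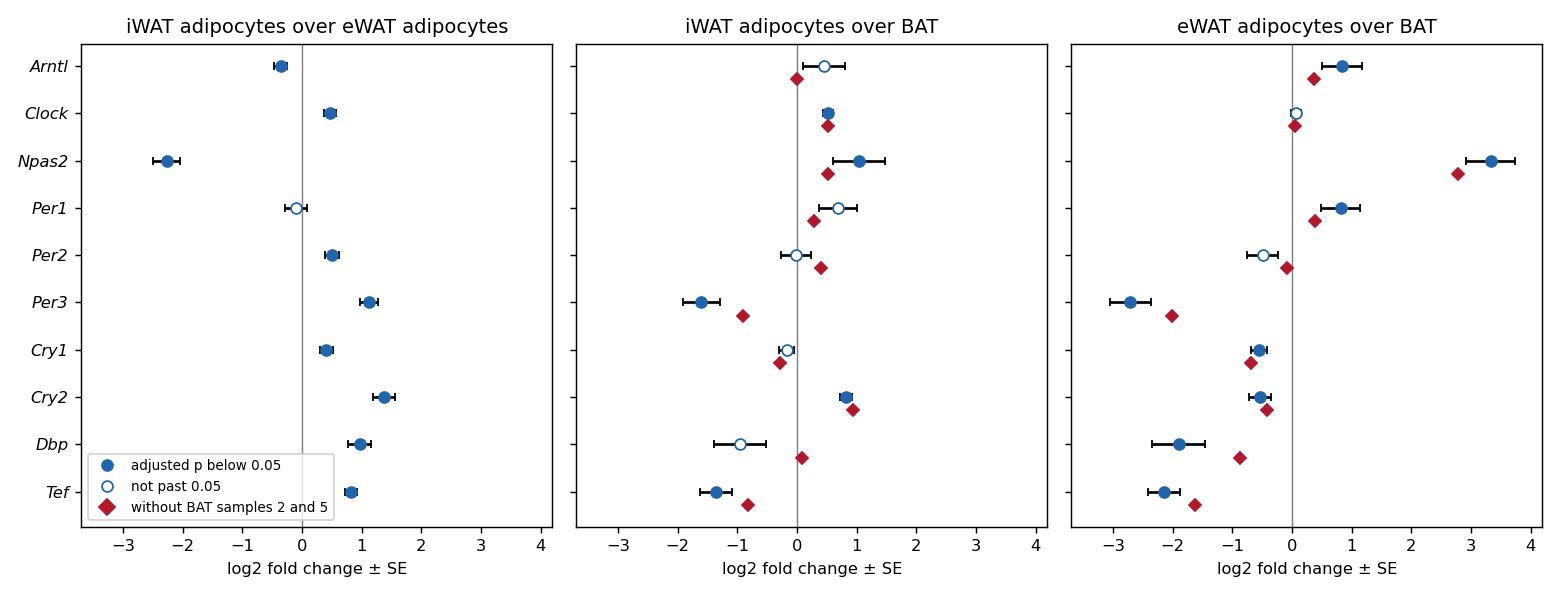
Log2 fold change of each member with its standard error, in 3 comparisons between tissues, filled where edgeR's adjusted p was below 0.05. Red diamonds give the value without BAT samples 2 and 5, which for Dbp moved from -0.96 to 0.09 against iWAT and from -1.90 to -0.87 against eWAT.

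The tissues also differed in genes that respond to tissue handling and in glucocorticoid targets. All 13 handling response genes (such as Fos, Junb and Atf3) were called higher in iWAT and in eWAT than in BAT, with sums of 2593 to 4513 in iWAT, 2205 to 3318 in eWAT and 82.5 to 628 in BAT. All 4 glucocorticoid targets were called higher in both white depots, with sums of 83.0 to 115, 73.9 to 95.7 and 21.2 to 41.7. Between iWAT and eWAT, 9 of 13 handling genes and 1 of 4 glucocorticoid targets were called. Their part in the clock differences was not tested.

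The order of each member's mean level over the tissues was as follows with all 6 samples. Arntl stood at 2.48 ± 0.23 (SD, n = 6) in eWAT, 1.91 ± 0.36 in iWAT and 1.41 ± 0.82 in BAT, and the last 2 did not pass the test against each other. Clock was 8.10 ± 0.92 in iWAT, 5.89 ± 0.84 in eWAT and 5.74 ± 0.48 in BAT, and eWAT and BAT did not pass. Npas2 was 1.28 ± 0.36 in eWAT, 0.261 ± 0.068 in iWAT and 0.125 ± 0.108 in BAT. For Per1 the means were 11.5 ± 2.7 in eWAT, 10.7 ± 2.6 in iWAT and 6.70 ± 3.54 in BAT, and neighbours in that order did not pass. Per2 was 2.80 ± 1.26 in BAT, 2.72 ± 0.32 in iWAT and 1.94 ± 0.36 in eWAT, where only the last step passed the test. Per3 was 2.69 ± 1.69 in BAT, 0.870 ± 0.099 in iWAT and 0.403 ± 0.104 in eWAT. Cry1 was 2.72 ± 0.52 in BAT, 2.38 ± 0.27 in iWAT and 1.81 ± 0.26 in eWAT, and BAT and iWAT did not pass. Cry2 was 5.69 ± 0.42 in iWAT, 3.28 ± 0.56 in BAT and 2.21 ± 0.70 in eWAT. Dbp was 10.7 ± 8.9 in BAT, 5.41 ± 1.76 in iWAT and 2.80 ± 0.56 in eWAT, and BAT and iWAT did not pass. Tef was 17.3 ± 8.9 in BAT, 6.66 ± 1.01 in iWAT and 3.81 ± 0.41 in eWAT. With BAT 2 and 5 left out, the BAT means of Dbp (5.20) and Per2 (2.08) fell below those of iWAT. That of Arntl (1.92) came level with iWAT, but only after TMM scaling. Without TMM scaling, the sign of eWAT over BAT turned for Per2, Cry1 and Cry2 and that of iWAT over BAT for Per2 and Cry1. A step that did not pass the test may still hide a difference smaller than the spread in BAT.

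Ratios of members within a library set genes side by side with little need of scaling between libraries, except where RPKM is near the pseudocount of 0.1, as for Npas2 in BAT. For 4 pairs, the log2 ratio of RPKM + 0.1 was compared between tissues by an exact two-sided permutation test over every split of the samples, with adjustment over 12 tests. The smallest p this design can give is 0.00216. Of the 12 differences, 7 had an adjusted p under the threshold.

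The ratio of Npas2 to Clock transcripts set eWAT apart. Pairing of the proteins was not measured. The macrophage sums given above were also highest in eWAT, and their part in this ratio was not tested. Npas2 was 11.1% to 33.2% of Clock in eWAT, 2.27% to 4.86% in iWAT and 0.235% to 5.11% in BAT, both per length. The log2 ratio was -2.16 ± 0.57 (SD, n = 6) in eWAT, -4.56 ± 0.27 in iWAT and -4.59 ± 0.61 in BAT. eWAT did not overlap with either of the others (exact permutation adjusted p = 0.00649 for both). Without eWAT 1 and 3 the difference of iWAT from eWAT was -2.11 (exact permutation adjusted p = 0.0143). iWAT and BAT did not pass (difference 0.03, exact permutation adjusted p = 0.948). The BAT ratios rest on 1 to 32 Npas2 reads, and with a pseudocount of 1 RPKM the difference between iWAT and BAT was -0.71 and passed (exact permutation adjusted p = 0.00649).

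The ratio of Cry1 to Cry2 transcripts set iWAT apart, and the part of other cell types in it was not tested either. Cry1 over Cry2 was -1.23 ± 0.21 in iWAT, -0.22 ± 0.49 in eWAT and -0.26 ± 0.42 in BAT on the log2 scale (SD, n = 6). Every iWAT library had a lower ratio than every library of the other tissues (exact permutation adjusted p = 0.00649 for both). eWAT and BAT did not pass (difference 0.04, exact permutation adjusted p = 0.948). The difference between iWAT and eWAT was -1.01, and -0.75 without eWAT 1 and 3 (exact permutation adjusted p = 0.0143). Within lanes 1 and 2 it was -0.93 and -0.95.

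Per1 over Per2 was 1.91 ± 0.33 in iWAT, 2.50 ± 0.45 in eWAT and 1.13 ± 1.51 in BAT (SD, n = 6). Only iWAT against eWAT passed (difference -0.59, exact permutation adjusted p = 0.0482), with overlapping ranges, and it did not pass without eWAT 1 and 3 (-0.33, exact permutation adjusted p = 0.229). Arntl over Dbp was -1.42 ± 0.63 in iWAT, -0.15 ± 0.33 in eWAT and -2.65 ± 2.23 in BAT. eWAT was above both iWAT (difference -1.27 for iWAT over eWAT) and BAT (difference 2.49), each with an exact permutation adjusted p of 0.00866. The eWAT values nevertheless overlapped with both other tissues. Without BAT 2 and 5 the difference of eWAT from BAT was 1.13, with an exact permutation adjusted p of 0.019. Without eWAT 1 and 3 it was 2.46 and did not pass (exact permutation adjusted p = 0.114).

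**Figure D4:**
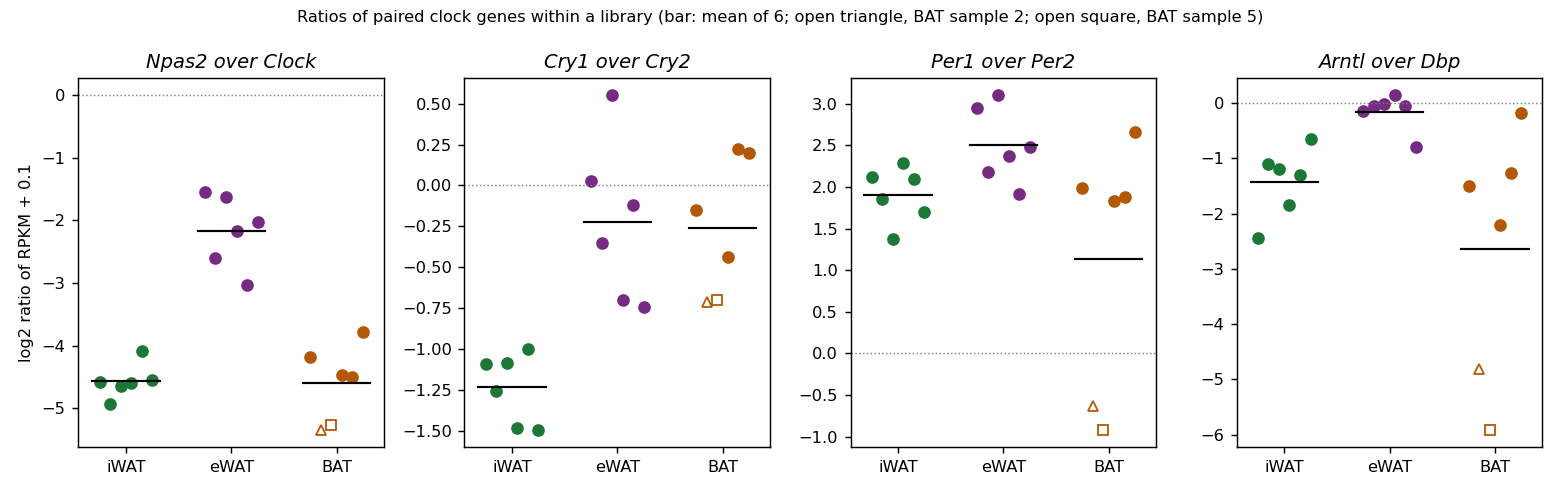
Log2 ratio of 2 members in each library, by tissue, with a bar at the mean of 6. The Npas2 over Clock ratio of all 6 eWAT libraries lies above the other tissues, the Cry1 over Cry2 ratio of all 6 iWAT libraries lies below them, and BAT 2 and BAT 5 (open symbols) lie lowest in Per1 over Per2 and in Arntl over Dbp.

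Arntl was also set against each of the other 9 members across the 6 samples of a tissue, and each member was compared between equally numbered iWAT and eWAT samples. This gave a family of 37 correlations, tested over all 720 pairings. Of the 9 in BAT, 2 passed after adjustment by Pearson r, Arntl against Per3 and against Dbp, both negative (exact permutation adjusted p = 0.0257 for each). By Spearman rho neither passed (exact permutation adjusted p = 0.0514 for each). BAT 2 and 5 were noticed through these same members, so the p-values are no separate evidence for their difference. The BAT values fall into separate clusters, BAT 2 and 5 and the other 4, so a pooled coefficient is not given, and neither cluster is large enough for one of its own. In the white depots none of 18 passed after adjustment. Unadjusted, iWAT had Arntl against Clock (Pearson r = 0.89, exact permutation p = 0.0181, Spearman rho = 0.77, p = 0.103) and against Per3 (r = -0.88, exact permutation p = 0.0194, rho = -0.94, p = 0.0167). eWAT had Arntl against Per2 (r = -0.85, exact permutation p = 0.0264, rho = -0.89, p = 0.0333). Their adjusted exact permutation p-values were at least 0.103, and r was 0.61, -0.78 and -0.51 without the 2 samples farthest from the Arntl median. Arntl against Dbp gave r = -0.70 (rho = -0.77) in iWAT and r = -0.37 (rho = -0.37) in eWAT, with exact permutation p of 0.113 and 0.499. Between equally numbered iWAT and eWAT samples, 0 of 10 members passed with or without adjustment, and the smallest exact permutation p was 0.0583, for Per3 with r = -0.76.

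Genes whose pattern was most like Dbp or Arntl were sought among 11414 other genes of at least 1 RPKM in every tissue, by Pearson r of log2(RPKM + 0.1) after removing each tissue's mean, over 18 samples. Npas2, Per3 and Hlf fell below that level and were not searched, with a mean RPKM of 0.0927 in BAT for Npas2. In eWAT it was 0.457 for Per3 and 0.196 for Hlf. All r values here are descriptions, since BAT 2 and 5 weigh heavily in them and samples share their libraries. Tef was the gene most like Dbp (r = 0.98), and it stayed close over the 12 white samples (r = 0.91) and over the 16 samples left without BAT 2 and 5 (r = 0.92). Nr1d2 came next (r = 0.86, and 0.75 in white samples), then Sphk2 (0.85 and 0.81), which overlaps Dbp, Per2 (0.85 and 0.48) and Atp11b (0.83 and 0.23). These 4 were at 0.71, 0.58, 0.68 and 0.33 without BAT 2 and 5. 3 of these 5 genes are clock genes. The gene least like Dbp was Arntl (r = -0.91, and -0.62 in white samples), followed by Gm4799 (-0.89), ENSMUSG00000075241 (-0.88), Gm10481 (-0.87) and Tubb2a (-0.86), which were at -0.70, -0.68, -0.56, -0.68 and -0.52 without BAT 2 and 5.

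For Arntl, Dbp (r = -0.91) and Tef (r = -0.91, and -0.71 in white samples) were the least alike of the genes searched. Etohi1 (-0.85), ENSMUSG00000082218 (-0.80) and ENSMUSG00000083681 (-0.79) followed. Over the samples without BAT 2 and 5, Dbp and Tef were at -0.70 and -0.69, Etohi1 was at -0.17, and the last 2 turned positive, both at 0.33. The most alike were Nrp (0.89), ENSMUSG00000078154 (0.89), Dhrs3 (0.88), AK138970 (0.88) and ENSMUSG00000083240 (0.88). None of these 5 is a clock gene, but Npas2, Per3 and Hlf were not among the genes searched. Without BAT 2 and 5 the r of these 5 genes was 0.22 to 0.45.

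**Figure D5:**
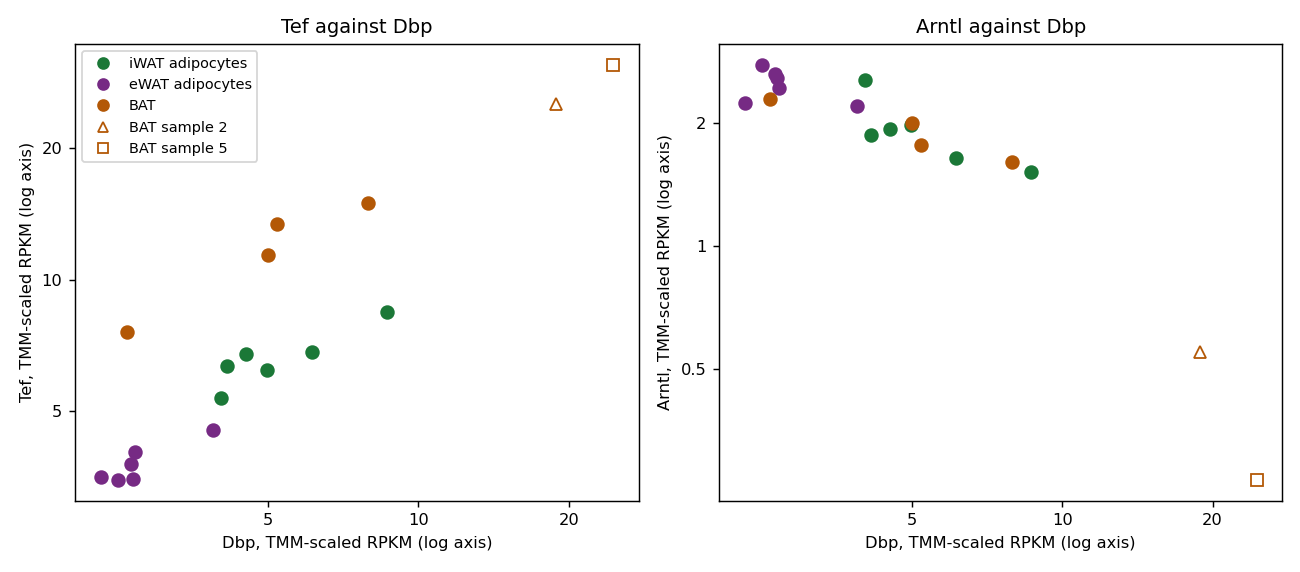
Tef against Dbp and Arntl against Dbp, each as TMM-scaled RPKM on log axes, with 1 point per sample. Samples high in Dbp were high in Tef, with BAT above iWAT at like Dbp, and BAT 2 and BAT 5 (open symbols) lie at the end of high Dbp and low Arntl.

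Of 22 other clock genes listed, 21 were found in the tables, Cipc being the exception, and Ciart appears under its older symbol Gm129. Between iWAT and eWAT 13 of 20 tested were called, 8 higher in iWAT and 5 higher in eWAT. Between iWAT and BAT 13 of 21 were called, 5 higher in iWAT and 8 in BAT, and between eWAT and BAT 16 of 21, 7 higher in eWAT and 9 in BAT. These shares of 65.0%, 61.9% and 76.2% lie below those over all genes given above.

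The D-box activator Hlf was far higher in BAT than in eWAT, by 57.4-fold (log2 fold change -5.84 with SE 0.27, edgeR adjusted p = 1.84e-11), and by 8.08-fold over iWAT (-3.01, SE 0.19, edgeR adjusted p = 1.03e-09). It was 7.20-fold higher in iWAT than in eWAT (2.85, SE 0.20, edgeR adjusted p = 2.28e-07). Hlf, Tef and Dbp had the same order of mean levels, BAT, iWAT, eWAT, but without BAT 2 and 5 the BAT mean of Dbp was below that of iWAT. Rorb averaged 44.8 reads in BAT, 5.0 in iWAT and 3.0 in eWAT, with log2 fold changes of -4.41 (eWAT over BAT) and -3.60 (iWAT over BAT). It met the count filter only through BAT, so these values are a description and no test is read from them. Wee1, a cell cycle kinase gene under clock control, was highest in eWAT and 2.65-fold above iWAT (-1.40, SE 0.16, edgeR adjusted p = 8.57e-06).

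Nr1d1 was 2.02-fold higher in iWAT than in eWAT (log2 fold change 1.02 with SE 0.18, edgeR adjusted p = 0.000294) and 2.04-fold higher in BAT than in eWAT (-1.03, SE 0.18, edgeR adjusted p = 8.27e-05). iWAT and BAT did not pass (-0.03, edgeR adjusted p = 0.835), and without TMM scaling the difference between eWAT and BAT was lost (-0.10, edgeR adjusted p = 0.567). Nr1d2 was higher in BAT than in iWAT (-0.65, SE 0.20, edgeR adjusted p = 0.00723) and eWAT (-0.66, SE 0.19, edgeR adjusted p = 0.00422), but without TMM scaling both turned positive, at 0.22 and 0.26. Leaving out BAT 2 and 5 gave -0.35, no longer past the threshold (edgeR adjusted p = 0.0665), and -0.37 (edgeR adjusted p = 0.022). Between iWAT and eWAT it was at 0.04 (edgeR adjusted p = 0.807). Nfil3 was higher in iWAT than in eWAT (0.53, SE 0.14, edgeR adjusted p = 0.00408) and BAT (0.82, SE 0.22, edgeR adjusted p = 0.00358), and did not pass between eWAT and BAT (0.31, SE 0.20, edgeR adjusted p = 0.162). Against the other 4 BAT samples alone it was 0.52 for iWAT (edgeR adjusted p = 0.00939) and 0.01 for eWAT.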

How the data were processed

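Libraries were made from total RNA (RIN above 8) with the NEBNext Ultra kit. The submitters' processing notes name cutadapt 1.16, HISAT2 2.1.0 and genome build mm9. How reads were counted, with what strand setting and how shared reads were assigned, is not given in the sources used here. Each deposited file holds, for every gene row, a raw read count and an RPKM value that the authors made from it. For each symbol the row of highest mean RPKM over the 18 samples was kept. Tissues were compared on the deposited counts, 6 against 6 samples, in edgeR 4.0.16 (quasi-likelihood test, TMM, mean count of at least 10, Benjamini-Hochberg adjustment) under R 4.3.3, with DESeq2 1.42.0 as an alternative. Exact tests of ratios and correlations used log2(RPKM + 0.1) of the deposited RPKM, in Python 3.11.15. TMM-scaled RPKM was computed from the counts, row lengths and TMM factors of all 18 samples. Checked on simulated counts, the edgeR step recovered 85.9%, 90.6% and 87.0% of genes changed by 1 on the log2 scale for iWAT over eWAT (19154 genes), iWAT over BAT (18354 genes) and eWAT over BAT (18370 genes).

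The members and gene lists were chosen with earlier results of these data known. Beside the 10 members, the text names Nr1d1, Nr1d2, Hlf and Nfil3, the 3 other clock genes with the largest called change in each comparison (1 of which is not reported here), and the 5 most and 5 least alike genes of Arntl and of Dbp. BAT 2 and 5, eWAT 1 and 3, and the marker and response genes given by name were singled out after their values were seen. Further marker lists were summed as TMM-scaled RPKM. Endothelial sums were 90.3 to 231 in iWAT, 29.1 to 63.8 in eWAT and 96.4 to 135 in BAT. Fibroblast and progenitor sums were 30.3 to 56.6, 30.9 to 50.9 and 18.5 to 24.5 in the same order. Mesothelial sums were at most 2.38 and lymphocyte sums at most 1.35 in any sample. Skeletal muscle sums were 3.54 to 15.2 in iWAT and 1.09 to 4.41 in eWAT, against 1.91 to 149 in BAT. No pair of samples of a tissue agreed within sampling noise (lowest chi-square 15.3 for each degree of freedom).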

Additional observations from a re-analysis of the deposited data

Results flagged for a closer look

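Each member was checked in each tissue for a single sample far from the other 5, by Dixon's criterion at its 95% level, and 2 of 30 groups met it, where chance gives about 1.5. Both were eWAT 16. Dbp there was at 3.89 TMM-scaled RPKM, with the next sample at 2.71 and the lowest at 2.31. Per3 was at 0.597, with the next at 0.419 and the lowest at 0.314. The criterion looks for 1 sample alone, so it does not pick out BAT 2 and BAT 5 together.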

How the results depend on the processing

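Without TMM scaling, 8 members differed between iWAT and BAT in edgeR's test (7 higher in iWAT). Of 19745 genes 16757 were then called, 13703 of them higher in iWAT. Per2 (0.84) and Cry1 (0.68) changed sign there, as did Per2 (0.41), Cry1 (0.35) and Cry2 (0.37) for eWAT over BAT. The glmTreat test called 1, 1 and 4 members for iWAT against eWAT, iWAT against BAT and eWAT against BAT. It called 11.2%, 29.2% and 40.7% of all genes in the same order. With no filter beyond 1 read, Per2 was at 0.087 for iWAT over BAT. Without BAT 2 and 5, Per2 (0.41) and Dbp (0.085) changed sign for iWAT over BAT. The log2 ratio differences that changed sign were Npas2 over Clock (-0.33), Per1 over Per2 (-0.18) and Arntl over Dbp (-0.14) for iWAT over BAT and Cry1 over Cry2 (-0.18) for eWAT over BAT. Without eWAT 1 and 3, 5 members differed between eWAT and BAT, beside 80.8% of all genes, and Per1 for iWAT over eWAT was at 0.048. Cry1 over Cry2 was then at -0.22 and Arntl over Dbp at 2.46 for eWAT over BAT, and Per1 over Per2 at -0.33 for iWAT over eWAT. With a pseudocount of 1, Npas2 over Clock was at -0.71 for iWAT over BAT, Per1 over Per2 no longer passed at -0.46 for iWAT over eWAT, and it passed at 1.25 for eWAT over BAT. The causes were not tested.

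Equally numbered samples did not deviate together (mean correlation -0.00499 for iWAT with eWAT over 19941 genes, lowest -0.241, and 1 of 6 best matched to its own number), so the numbers were not taken as pairs. With a replicate block, 9, 8 and 9 members differed in the 3 comparisons. Over all genes 12836 of 19623, 12555 of 19745 and 15149 of 20076 were called. Against BAT the block rests on the 4 shared numbers, which include BAT 2 and BAT 5. Cry1 for iWAT over BAT was at 0.046 with the block. Paired differences for iWAT over eWAT were -2.40, -1.01, -0.59 and -1.27 for Npas2 over Clock, Cry1 over Cry2, Per1 over Per2 and Arntl over Dbp, and an exact sign-flip test adjusted over these 4 gave p of 0.0625 or more, where 6 pairs cannot go below 0.0312 unadjusted. The 4 pairs shared with BAT cannot reach the threshold. DESeq2, summed rows, one fit of all 18 samples and a lane term moved no member count past 1.5 times. Depth limits Npas2 in BAT, with 1 to 32 reads.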

Other observations

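Some clock genes outside the members also set BAT 2 and 5 apart. Usp2, which encodes a deubiquitinase under clock control, was 3.49 and 4.10 TMM-scaled RPKM in BAT 2 and 5 and 1.67 to 2.86 in the other 4. Nampt, which encodes the rate-limiting enzyme of NAD salvage, was 47.5 and 57.1 against 38.4 to 48.7. Wee1 was 2.03 and 2.18 against 1.25 to 1.54. Arntl2, a relative of Arntl, was 1.18 and 1.40 against 0.850 to 1.17. Bhlhe40, which encodes a repressor at E-boxes, was 19.5 and 21.7 against 27.9 to 51.1. Bhlhe41, from the same list, went the other way, at 3.50 and 5.20 against 1.84 to 3.47. Nampt was the exception, with overlapping values. These genes were picked from the list of other clock genes after their values were seen, and no test was made. Of the 21 genes on that list, 3 were lower in both samples, 8 were higher and 10 overlapped. Of all genes averaging 10 or more reads in BAT, 26.6% did not overlap.

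In eWAT, samples 1 and 3 had the lowest Clock (5.10 and 4.92, against 5.41 to 6.86), Cry2 (1.41 and 1.32, against 2.21 to 2.97) and Usp2 (0.863 and 0.784, against 1.13 to 1.47). They had the 2 highest Npas2 levels, 1.69 and 1.53, against 0.725 to 1.45. These were also the eWAT samples with the lowest adipocyte and highest macrophage marker sums, whose part in these values was not tested.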
